A study of Mus musculus with 24 samples.

Results

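The V segments Trbv23 to Trbv30 form the 3′ end of the upstream V array of the mouse T cell receptor beta locus (Tcrb) and lie nearer to the D and J segments than any other upstream V segment. They were chosen by name, as all V segments of the Tcrb tables numbered 23 to 30, and 5 of the 22 listed V segments met this rule: TRBV23, TRBV24, TRBV26, TRBV29 and TRBV30. Receptor transcripts were profiled in total RNA of thymocytes from Satb1 knockout mice (KO; 3 Tcrb libraries) and wild-type mice (WT; 3 Tcrb libraries). All mice were on a C57BL/6 background and 4 to 12 weeks old. The labels give the KO genotype as Satb1-/-, whereas the series design calls it a conditional knockout, and the labels name no Cre driver. They do not say whether libraries of equal number share a mouse or a day, or whether each library is a separate mouse, so a p-value here reflects no more than the scatter among these 6 libraries, which may be technical. No value in these tables measures Satb1 itself or markers of the thymus.

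In developing thymocytes the beta chain gene is assembled by joining a D to a J segment and then a V segment to the joined DJ. The locus holds a pair of D-J clusters, called J1 and J2, the J2 cluster lying downstream. An allele joined at J1 still carries the D and J segments of the J2 cluster and can rearrange again, to J2. Satb1 is a nuclear protein that binds DNA and organises chromatin, and it is abundant in thymocytes.

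Each deposited value gives, for a V-J pair, its part of all assignments in the library in percent, and the pairs of a library sum to 100. The tables list 11 J segments, 5 of cluster J1 and 6 of cluster J2. No counts are given and the depth is unknown, so no counting interval was computed. The smallest value above 0 of a library, its resolution, was 0.00570%, 0.0133% and 0.0110% in KO libraries 1, 2 and 3 and 0.00657%, 0.00809% and 0.00890% in WT libraries 1, 2 and 3. KO library 2 thus had the coarsest values.

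In the GENCODE M21 annotation of GRCm38, 8 segments carry numbers of this range, all on the plus strand of chromosome 6, and 3 of them, the pseudogenes Trbv25, Trbv27 and Trbv28, are not listed in the tables. The build that the submitters used is not given in the sources used here. The interval from the start of Trbv23 (chr6:41216073-41216526) to the end of Trbv30 (chr6:41281376-41281990) spans 65.9 kb. Trbv24 (chr6:41218091-41218557) and Trbv26 (chr6:41227505-41227993) lie close to Trbv23, and Trbv29 (chr6:41271394-41271881) lies close to Trbv30. Trbv23 ends 316.7 kb and Trbv30 ends 251.2 kb upstream of Trbd1, the D segment of the J1 cluster. The annotations differ on which of these segments are genes: Trbv24 is a pseudogene in GENCODE and a V segment in RefSeq (GRCm38.p6), whereas Trbv29 is a V gene in GENCODE and a pseudogene in RefSeq.

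The 3′ ends of the 5 coding sequences are shown because they bear on that difference. They come from the GENCODE M21 transcripts and run 5′ to 3′, and capitals mark the codon that stands 2 codons before the last cysteine codon, which begins the third complementarity-determining region:
TRBV23: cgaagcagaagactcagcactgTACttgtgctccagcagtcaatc
TRBV24: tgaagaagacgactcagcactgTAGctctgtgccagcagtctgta
TRBV26: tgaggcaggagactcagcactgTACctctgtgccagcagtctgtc
TRBV29: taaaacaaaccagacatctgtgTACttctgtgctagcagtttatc
TRBV30: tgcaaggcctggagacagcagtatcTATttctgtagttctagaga
The marked codon is TAC in TRBV23, TRBV26 and TRBV29 and TAT in TRBV30, both tyrosine codons. In TRBV24 it is the stop codon TAG, in the reading frame that starts at the first ATG of the transcript, where it is codon 109. TRBV24 was the only 1 of the 22 listed V segments whose transcript held an in-frame stop codon before the last cysteine codon. TRBV29, the pseudogene of RefSeq, held none. TRBV23, TRBV24 and TRBV26 resembled one another, with 75.7% identical bases between TRBV23 and TRBV24, 74.9% between TRBV24 and TRBV26 and 74.4% between TRBV23 and TRBV26. TRBV29 and TRBV30 shared at most 58.3% of bases with any of the other segments of this group. How the submitters' caller separated similar V segments is not given in the sources used here.

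The first comparison asked how much of the Tcrb repertoire each of these V segments held, and whether the share differed between the genotypes. TRBV29 held the most, TRBV23 and TRBV26 followed, and TRBV30 and TRBV24 were the 2 least used of all 22 V segments. No share passed the test between KO and WT. TRBV29 came nearest to a difference: its KO libraries all lay above its WT libraries.

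TRBV29 took 5.27%, 4.99% and 5.78% of KO libraries 1, 2 and 3, against 4.72%, 3.92% and 4.73% of WT libraries 1, 2 and 3. The lowest KO library lay above the highest WT library. The means were 5.34% ± 0.402 in KO and 4.46% ± 0.461 in WT (SD, n = 3 each). By limma on log2(percent + 0.00570) over all 22 V segments, the difference was 0.26 on that scale (95% interval -0.09 to 0.62, adjusted p = 0.592). With the replicate number as a block, limma gave an adjusted p = 0.153 (unadjusted p = 0.0356). The exact two-sided permutation test, chosen after seeing the data, gave p = 0.1, the smallest that 3 against 3 libraries allow. Across all V segments, groups that did not overlap were found for 4 of 22 (18.2%), the others being TRBV2 and TRBV20, higher in KO, and TRBV15, lower in KO.

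TRBV23 took 2.83%, 1.84% and 1.80% of the KO libraries, against 2.56%, 1.92% and 1.41% of the WT libraries. Library 1 was the highest and library 3 the lowest in both genotypes, and the groups overlapped. The log2 difference was 0.15 (95% interval -0.44 to 0.74, limma adjusted p = 0.919).

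TRBV26 took 1.50%, 2.09% and 1.79% of the KO libraries, against 1.60%, 2.03% and 1.22% of the WT libraries. Here library 2 was the highest in both genotypes, and the groups overlapped again. The log2 difference was 0.17 (95% interval -0.33 to 0.67, limma adjusted p = 0.854).

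TRBV30, the V segment nearest to the D segments on their 5′ side, took only 0.410%, 0.465% and 0.582% of the KO libraries, against 0.453%, 0.631% and 0.294% of the WT libraries. The highest and the lowest of the 6 values both came from WT libraries. The log2 difference was 0.13 (95% interval -0.48 to 0.75, limma adjusted p = 0.934).

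TRBV24, the segment with the stop codon, took 0.222%, 0.479% and 0.132% of the KO libraries, against 0.335%, 0.437% and 0.240% of the WT libraries. Library 2 was the highest and library 3 the lowest in both genotypes. Its log2 difference, the one negative value of the group, was -0.43, with the widest interval of the group (-1.37 to 0.51, limma adjusted p = 0.854). In KO library 3 the whole share of TRBV24 was only 12 times the smallest value of that library, and it was at most 54 times in any of the 6 libraries, so its values move in coarse steps.

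**Figure D1:**
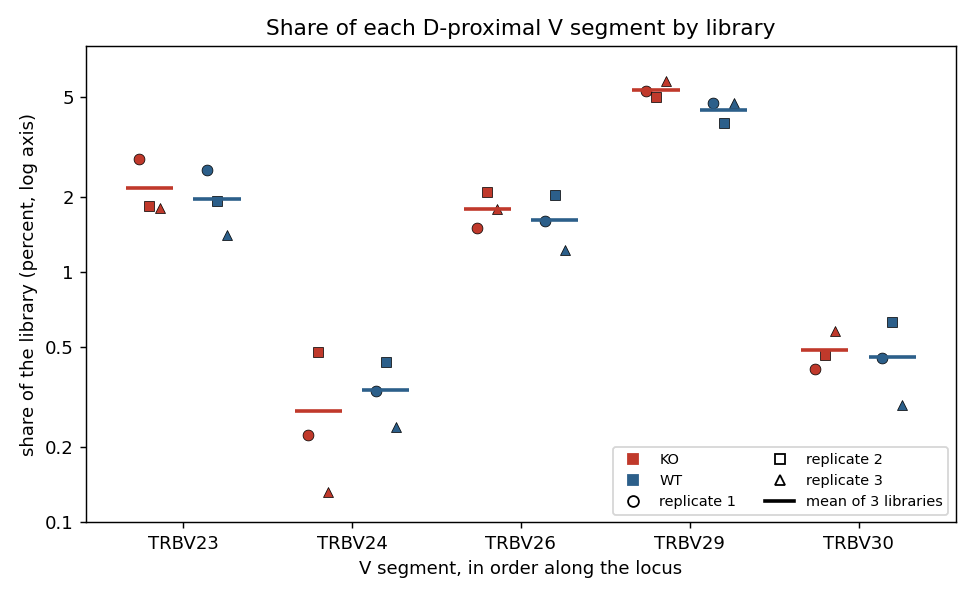
Share of each V segment in percent of the library, on a log axis, for KO libraries (red, left) and WT libraries (blue, right). Symbols mark replicate numbers and bars the mean of 3 libraries. Of the 5 segments, only TRBV29 shows KO libraries (4.99% to 5.78%) wholly above WT libraries (3.92% to 4.73%).

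Across the whole table, limma called 0 of 22 V segments (0%), with 3 at an unadjusted p under 0.05 and none of these in the group described here. Residuals of libraries with equal numbers correlated (Pearson r of 0.767, 0.610 and 0.489 over 22 V segments), and the fit with the replicate number as a block called 3 of 22 (13.6%): TRBV2, TRBV20 and TRBV15. Under that fit too, 0 of the 5 segments from TRBV23 to TRBV30 were called. The log2 difference was above 0 in 4 of the 5, with a median of 0.15 against -0.01 over all V segments. That sign was not stable for every segment: without WT library 3, TRBV23, TRBV26 and TRBV30 had differences of -0.07, -0.02 and -0.15, and without KO library 1 that of TRBV23 was -0.07, all short of the threshold.

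Together the 5 segments took 10.2%, 9.85% and 10.1% of the KO libraries, against 9.66%, 8.94% and 7.88% of the WT libraries. The KO libraries lay within a narrow range (10.1% ± 0.189), whereas the WT libraries were more spread and all lower (8.83% ± 0.892; SD, n = 3 each). Of the gap of 1.23 percentage points, TRBV29 made up 0.889. Without it, an alternative chosen after seeing the data, the other 4 summed to 4.71% ± 0.354 in KO and 4.37% ± 1.05 in WT, and the groups overlapped. When each V-J pair above 0 was counted once instead of by its percentage, the 5 segments held 21.3% of pairs in KO and 21.6% in WT. The difference was then -0.33 percentage points. In every library 236 to 240 of the 242 listed pairs were above 0, so this count is almost fixed and cannot follow usage. Among the 5 segments only TRBV24 and TRBV30 had pairs at 0.

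The order of the shares was largely the same from library to library. TRBV29 was the highest of the 5 in 6 of 6 libraries. TRBV23 exceeded TRBV26 in 4 of 6 libraries, with TRBV26 ahead in both libraries numbered 2, so these neighbours were not separated beyond their spread. TRBV30 exceeded TRBV24 in 5 of 6 libraries, KO library 2 being the exception. Among all V segments by mean share over the 6 libraries, TRBV29 ranked 9th (9th in KO and 11th in WT), next to TRBV12-2, which it exceeded in 3 of 6 libraries. TRBV23 and TRBV26 ranked 18th and 19th. TRBV14, ranked 20th, lay below TRBV26 in 6 of 6 libraries and above TRBV30, with ranges that did not overlap. The ratio of TRBV29 to the lowest member ranged from 8.98 in WT library 2 to 43.8 in KO library 3, and this spread followed TRBV24 more than TRBV29.

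**Figure D2:**
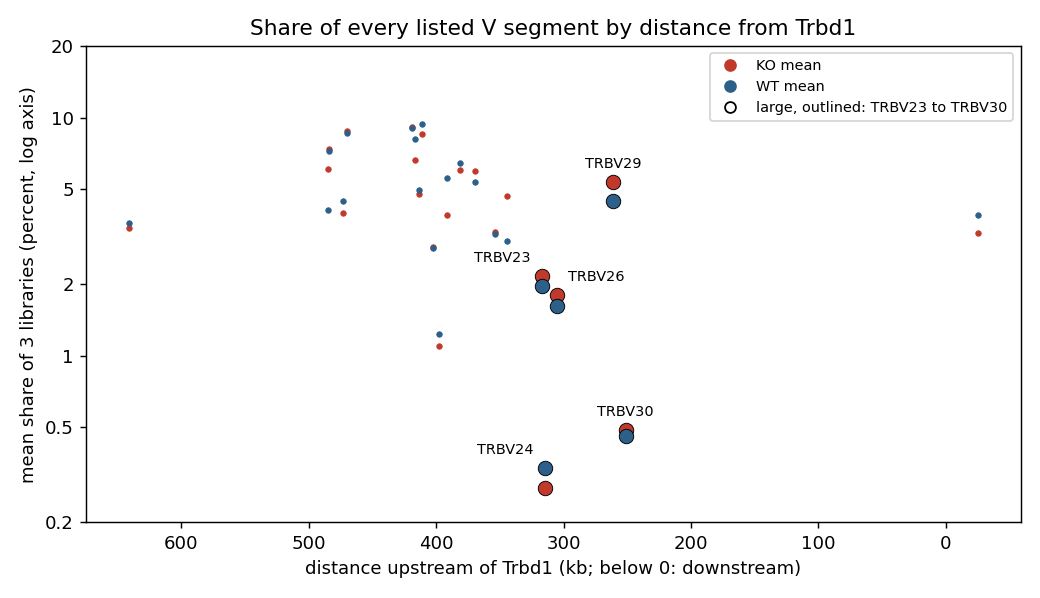
Mean share of 3 libraries, in percent on a log axis, against the distance in kb from the end of each V segment to the start of Trbd1, for KO (red) and WT (blue). The 5 segments from TRBV23 to TRBV30 are outlined and labelled. Of the neighbouring pair nearest to Trbd1, TRBV29 averaged 5.34% in KO and 4.46% in WT and TRBV30 averaged 0.486% in KO and 0.459% in WT.

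Position alone did not order these shares. TRBV29 and TRBV30 lie 261.3 and 251.2 kb upstream of Trbd1, yet their mean shares over the 6 libraries were 4.90% and 0.473%. TRBV23 and TRBV24 lie 316.7 and 314.6 kb upstream, with mean shares of 2.06% and 0.307%. These values are descriptions of 5 neighbouring segments and carry no test.

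The second comparison asked how these V segments divided their joins between the J1 and J2 clusters. TRBV26 and TRBV29 used J2 less, relative to J1, than the rest of the same libraries did, in KO and WT alike. TRBV23 showed no called departure from the rest, and its own J2 to J1 ratio fell in KO. TRBV30, and less clearly TRBV24, had a higher J2 share than the rest. In the rest of the library, J2 joins were 61.0%, 59.9% and 65.0% of the other 17 V segments in KO, against 67.1%, 69.4% and 68.8% in WT, so the J2 share was lower in every KO library.

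TRBV23 was joined to J2 segments in 66.2%, 60.1% and 61.6% of its KO assignments, against 71.2%, 65.8% and 75.3% of its WT assignments. The groups overlapped slightly, KO library 1 lying above WT library 2. Its J2 to J1 ratio fell by 0.53 on the log2 scale in KO (95% interval -0.90 to -0.17, limma adjusted p = 0.0172). limma gave nearly the same standard error (0.18) to all 20 V segments in this test, although the V segments of a library share its J use. The call did not hold under all settings. It was lost without KO library 2 (adjusted p = 0.0635), without WT library 1 (0.0506), without WT library 3 (0.186) and when all 22 V segments were tested with no filter (0.0536), all by limma.

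TRBV26 was joined to J2 segments in 57.0%, 46.5% and 63.8% of its KO assignments, against 57.2%, 64.5% and 65.0% of its WT assignments. KO library 2 was far below the other 5. In KO library 2 a single J1 segment, TRBJ1-4, held 24.8% of TRBV26, against 0.730% to 12.5% in the other 5. The log2 difference of the J2 to J1 ratio was -0.38 (95% interval -0.74 to -0.02), and it missed the threshold (limma adjusted p = 0.0809). Without KO library 3 the difference was -0.62 (limma adjusted p = 0.00873), and without KO library 2 it was -0.11 (limma adjusted p = 0.564), so 1 library decides this value.

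TRBV29 was joined to J2 segments in 59.0%, 56.3% and 56.3% of its KO assignments, against 63.5%, 59.4% and 62.3% of its WT assignments. The groups did not overlap, which held for 10 of all 22 V segments (45.5%), all of them lower in KO. The log2 difference of the ratio was -0.27 (95% interval -0.63 to 0.09, limma adjusted p = 0.172).

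Over all 20 V segments with a mean share of at least 0.5%, the J2 to J1 ratio was called in 8 (40%), each lower in KO, and the median log2 difference was -0.37. TRBV23 was the 1 call among the 3 tested segments of this group, and the 3 had a median of -0.38. Whether a V segment differed from its library in this respect was tested as the KO minus WT difference of its ratio relative to that of all other V segments. This called 1 of 20 V segments (5%), TRBV13-3, and none of the 3. The relative differences were -0.13 for TRBV23 (95% interval -0.44 to 0.18), 0.03 for TRBV26 (-0.29 to 0.34) and 0.14 for TRBV29 (-0.18 to 0.45), with limma adjusted p = 0.748, 0.919 and 0.748. Summed over the 5 segments, the J2 share was 61.7%, 56.1% and 59.8% in KO, against 65.5%, 62.9% and 66.1% in WT, a difference of -5.64 percentage points beside -6.45 in the other V segments.

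**Figure D3:**
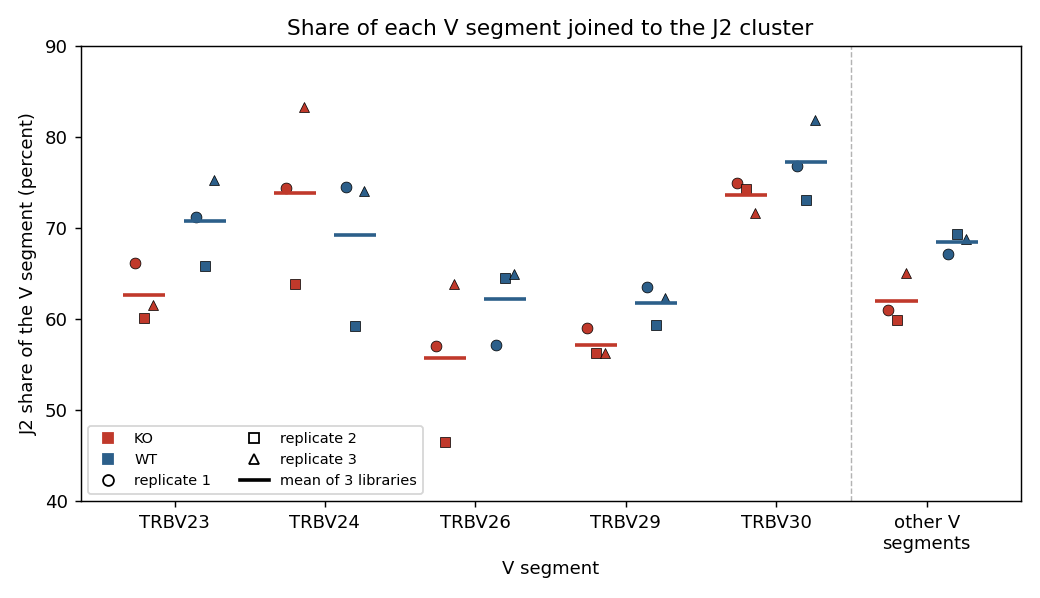
J2 share of each V segment, in percent of its own assignments, for KO libraries (red, left) and WT libraries (blue, right), beside that of the other 17 V segments summed. The vertical axis starts at 40%. TRBV29 lies between 56.3% and 63.5%, below the other V segments (59.9% to 69.4%) of the same library in each case, while TRBV30 lies between 71.7% and 81.8%.

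Split by cluster, TRBV29 joined to J1 made up 2.16%, 2.18% and 2.53% of the KO libraries, against 1.72%, 1.59% and 1.78% of the WT libraries. These groups did not overlap, as was the case for 4 of 22 V segments (18.2%). TRBV29 joined to J2 made up 3.11%, 2.81% and 3.25% of the KO libraries, against 3.00%, 2.33% and 2.95% of the WT libraries, and these groups overlapped. The J2 parts did not overlap in 7 of 22 V segments (31.8%), none of which belongs to the group. This split was made after seeing the data and was not tested.

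Set against all other V segments of its own library, TRBV26 had a log2 J2 to J1 ratio that was lower by 0.25, 0.78 and 0.05 in the KO libraries and by 0.61, 0.29 and 0.25 in the WT libraries. The sign was the same in 6 of 6 libraries, though the size ranged widely. The mean was -0.37 (95% interval -0.53 to -0.21, limma adjusted p = 6.21e-05).

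TRBV29 was lower by 0.13, 0.21 and 0.53 in the KO libraries and by 0.23, 0.62 and 0.42 in the WT libraries, again in 6 of 6. The mean was -0.36 (95% interval -0.51 to -0.20, limma adjusted p = 7.02e-05). TRBV23 had values of 0.33, 0.03 and -0.19 in the KO libraries and 0.29, -0.21 and 0.47 in the WT libraries, with a mean of 0.12 (95% interval -0.03 to 0.28, limma adjusted p = 0.229) that ranged from 0.049 to 0.22 when a library was left out.

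Of all 20 V segments tested this way, 8 (40%) were called, 4 higher (TRBV12-2, TRBV14, TRBV15 and TRBV17) and 4 lower (TRBV13-3, TRBV20, TRBV26 and TRBV29), so a departure from the library was common. TRBV26 and TRBV29 kept their calls under every alternative fit run with limma, with adjusted p = 0.0292 and 0.0122 at most, both with the replicate number as a block. limma gave every V segment the same standard error (0.08), although the V segments of a library share its J use and the less used ones are noisier. The exact two-sided sign-flip test over 6 libraries, chosen after seeing the data and free of that shared spread, gave p = 0.03125 for both, the smallest it can give. Adjusted over the 20 V segments that p was 0.0893 for both. With 6 libraries an adjusted p under 0.05 would have needed 13 V segments at the smallest p, and 7 were there, so missing the threshold here says little about either segment.

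**Figure D4:**
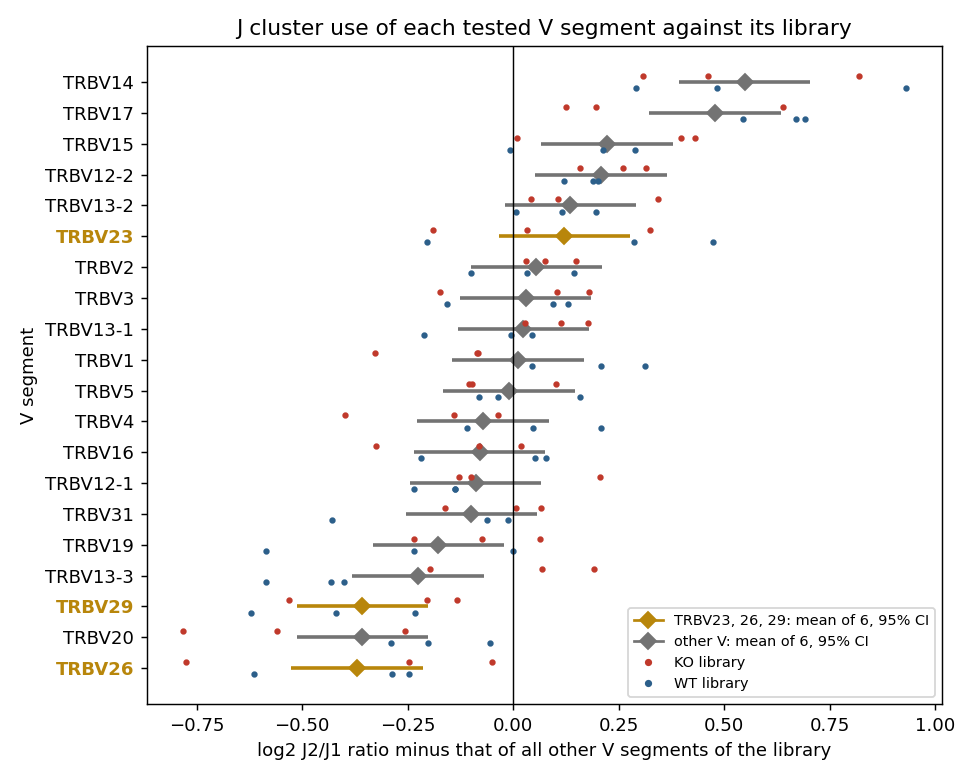
Log2 J2 to J1 ratio of each of the 20 tested V segments minus that of all other V segments of the same library. Diamonds and lines give the mean over 6 libraries and limma's 95% interval, dots the KO libraries (red, above) and the WT libraries (blue, below). TRBV26 and TRBV29 (gold) stand at -0.37 and -0.36 with 6 of 6 libraries below 0, and TRBV23 stands at 0.12.

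TRBV24 and TRBV30 fell under the share filter of this test, so their J use is given mainly as values. TRBV30 was joined to J2 segments in 75.0%, 74.3% and 71.7% of its KO assignments, against 76.8%, 73.1% and 81.8% of its WT assignments. Every one of these shares exceeds the J2 share of the other V segments in the same library. TRBV24 was joined to J2 segments in 74.4%, 63.9% and 83.3% of its KO assignments, against 74.5%, 59.3% and 74.1% of its WT assignments, WT library 2 being the exception that lay below the rest of its library. With no filter, over 22 V segments, limma put the mean relative ratio at 0.69 for TRBV30 (adjusted p = 7.66e-05) and 0.40 for TRBV24 (adjusted p = 0.0253). That setting called 10 of the 22 V segments, so a call was common there too. The KO minus WT log2 difference of the ratio itself was -0.27 for TRBV30 (limma adjusted p = 0.197) and 0.29 for TRBV24 (limma adjusted p = 0.339). Relative to the other V segments it was 0.14 for TRBV30 (limma adjusted p = 0.779) and 0.70 for TRBV24 (limma adjusted p = 0.234). At these low shares single steps of the resolution move the ratio: 12 of 66 V-J cells of TRBV30 and 11 of 66 of TRBV24 were listed at 0, against 0 of 66 in each of the other 3.

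The third comparison asked which J segments carried these profiles. Each V-J pair was set against the product of its V share and its J share in the same library, the observed over expected ratio, in which 1 means no preference. For each V segment the pairs with the lowest and the highest mean preference are named. They were TRBJ2-3 and TRBJ1-5 for TRBV29, TRBJ2-5 and TRBJ1-2 for TRBV26, and TRBJ1-1 and TRBJ2-1 for TRBV23. Some other pairs of the group had smaller p-values than some of these. None passed the test after adjustment.

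The J segments with the highest or the lowest preference among the tested pairs of TRBV23, TRBV26 or TRBV29 are shown because the values below turn on them. They come from the GENCODE M21 transcripts, 5′ to 3′, and capitals mark the phenylalanine codon that opens the conserved J motif:
TRBJ1-1: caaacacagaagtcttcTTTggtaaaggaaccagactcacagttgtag
TRBJ1-2: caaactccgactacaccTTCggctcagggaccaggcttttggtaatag
TRBJ1-5: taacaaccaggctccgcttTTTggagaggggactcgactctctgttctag
TRBJ2-1: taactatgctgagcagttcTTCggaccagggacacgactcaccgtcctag
TRBJ2-3: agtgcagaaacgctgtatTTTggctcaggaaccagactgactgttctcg
TRBJ2-5: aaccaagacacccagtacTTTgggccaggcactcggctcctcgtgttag

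TRBV29 with TRBJ2-3 had observed over expected ratios of 0.861, 0.808 and 0.695 in KO libraries, against 0.806, 0.771 and 0.503 in WT libraries. It lay below 1 in 6 of 6 libraries. The mean on the log2 scale was -0.45 (95% interval -0.71 to -0.20), with a limma adjusted p = 0.0621.

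At the other end, TRBV29 with TRBJ1-5 had ratios of 1.36, 0.869 and 2.07 in KO libraries, against 1.86, 2.20 and 0.970 in WT libraries, with a log2 mean of 0.55 (95% interval 0.10 to 0.99, limma adjusted p = 0.180). These values scattered over both sides of 1. TRBV29 with TRBJ1-4 lay above 1 in 5 of 6 libraries, with a log2 mean of 0.33 (limma adjusted p = 0.148), and it was called only among the 74 pairs left by the stricter filter and with 10 times the pseudocount. With TRBJ2-1 it lay below 1 in 5 of 6, with a log2 mean of -0.30 (limma adjusted p = 0.198).

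TRBV26 with TRBJ2-5 had ratios of 0.836, 0.704 and 0.689 in KO libraries, against 0.678, 0.590 and 1.08 in WT libraries. Only WT library 3 lay above 1. The log2 mean was -0.42 (95% interval -0.70 to -0.14, limma adjusted p = 0.111).

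TRBV26 with TRBJ1-2 had ratios of 1.49, 1.11 and 1.85 in KO libraries, against 1.40, 0.804 and 1.44 in WT libraries, with a log2 mean of 0.39 (95% interval 0.06 to 0.71, limma adjusted p = 0.190). With TRBJ1-1, TRBV26 stood at 0.994, 1.02 and 0.958 in KO libraries, against 1.51, 1.37 and 1.46 in WT libraries. The KO libraries were at the expected level and the WT libraries above it, without overlap. The log2 mean over both genotypes was 0.26 (limma adjusted p = 0.111), and that of TRBV26 with TRBJ1-3 was 0.38 (limma adjusted p = 0.148). The preference of 26 of 209 pairs (12.4%) did not overlap between the genotypes, 3 of these in the group described here: TRBV23 with TRBJ2-2 and TRBV26 with TRBJ1-1 and TRBJ1-3, each higher in WT. The difference in preference between genotypes was not tested.

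TRBV23 with TRBJ1-1 had ratios of 0.773, 0.672 and 0.549 in KO libraries, against 0.942, 1.25 and 0.654 in WT libraries. All but WT library 2 lay below 1. The log2 mean was -0.36 (95% interval -0.66 to -0.07, limma adjusted p = 0.181).

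TRBV23 with TRBJ2-1 had ratios of 1.27, 0.724 and 1.48 in KO libraries, against 1.37, 1.19 and 1.56 in WT libraries, with a log2 mean of 0.30 (95% interval -0.02 to 0.62, limma adjusted p = 0.251). KO library 2 was the only 1 below the expected level.

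limma called 0 of 209 pairs (0%) for preference. At an unadjusted p under 0.05 there were 41 pairs, 10 of them among the 29 tested pairs of TRBV23, TRBV26 and TRBV29. No pair of TRBV24 or TRBV30 reached the mean share of 0.1% that the test required.

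**Figure D5:**
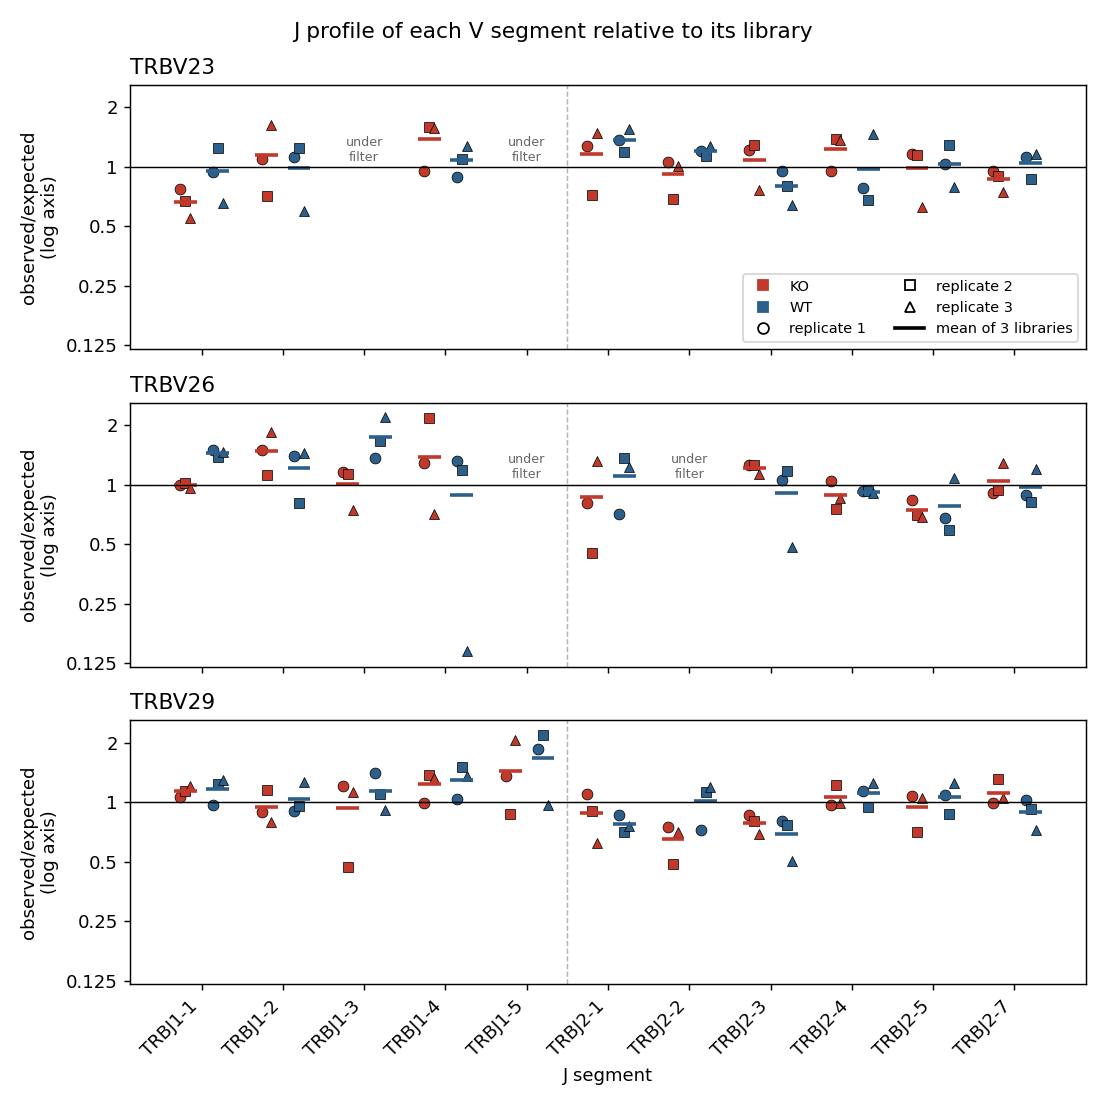
Observed over expected ratio of each tested pair, on a log axis, for KO libraries (red, left) and WT libraries (blue, right) of TRBV23, TRBV26 and TRBV29; the dashed line separates J1 from J2. Bars are means of 3 libraries, and "under filter" marks pairs with a mean share under 0.1%. TRBV29 with TRBJ2-3 lies below 1 in 6 of 6 libraries (0.503 to 0.861), and TRBV26 with TRBJ1-4 in WT library 3 is the lowest value at 0.144. That pair took 0.00890% of WT library 3, the smallest value above 0 of that library.

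The share of single V-J pairs in the library was compared between the genotypes as well. No pair passed: limma called 0 of 209 (0%), 25 had an unadjusted p under 0.05, and 2 of these belonged to the group. TRBV23 with TRBJ1-4 took 0.268%, 0.332% and 0.253% of the KO libraries, against 0.177%, 0.162% and 0.142% of the WT libraries. The groups lay wide apart, and the log2 difference was 0.80 (95% interval 0.22 to 1.38, limma adjusted p = 0.249). Set against the V and J shares of its library, the same pair overlapped between the genotypes. Its observed over expected ratios were 0.958, 1.59 and 1.58 in KO libraries, against 0.890, 1.09 and 1.27 in WT libraries. TRBV26 with TRBJ1-2 took 0.154%, 0.146% and 0.198% of the KO libraries, against 0.131%, 0.0809% and 0.0801% of the WT libraries, a log2 difference of 0.76 (limma adjusted p = 0.320).

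Pairs whose genotypes did not overlap numbered 38 of 209 (18.2%), some higher and some lower in KO. Of the 29 tested pairs of this group 5 were among them, a share close to that over all pairs. They were TRBV23 with TRBJ1-4 and TRBJ2-4, TRBV26 with TRBJ1-2, and TRBV29 with TRBJ1-1 and TRBJ2-7, each higher in KO. Among the group's pairs under the 0.1% filter, only TRBV24 with TRBJ2-5 did not overlap, and it was lower in KO. It took 0.0171%, 0.0133% and 0.0330% of the KO libraries, against 0.0460%, 0.0566% and 0.0534% of the WT libraries. The value of KO library 2 was the smallest above 0 of that library. As a share of TRBV24 the pair overlapped, at 7.69%, 2.78% and 25.0% in KO, against 13.7%, 13.0% and 22.2% in WT. Pairs under the filter were not counted over all V segments. TRBV29 with TRBJ2-7, its most frequent pair, took 0.764%, 0.851% and 0.956% of the KO libraries, against 0.756%, 0.607% and 0.525% of the WT libraries (log2 difference 0.45, limma adjusted p = 0.551). The gap between the nearest KO and WT libraries was small. TRBV29 with TRBJ1-1 took 0.633%, 0.758% and 0.736% of the KO libraries, against 0.480%, 0.493% and 0.623% of the WT libraries (log2 difference 0.42, limma adjusted p = 0.566). The log2 difference was above 0 in 9 of 11 pairs of TRBV29, 4 of 9 of TRBV23 and 4 of 9 of TRBV26. Among the tested pairs of the other V segments it was above 0 in 91 of 180. The pairs of TRBV29 share its V total, which was higher in KO, so their signs are not separate results. The median over the 29 tested pairs of the group was 0.17, against 0.01 over all 209.

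The mean J profiles over the 6 libraries, each J segment as a share of its V segment, were compared by Pearson's r over 11 J segments, as a description. The V segment with the most similar profile was TRBV13-2 for TRBV23 (r = 0.926), TRBV13-3 for TRBV26 (r = 0.950) and TRBV20 for TRBV29 (r = 0.906). For TRBV30 it was TRBV3 (r = 0.925), and for TRBV24 it was TRBV17 (r = 0.819). All of these lie outside the group. Within it, r was highest between TRBV26 and TRBV29 (0.843) and lowest between TRBV24 and TRBV29 (0.486). Profiles of V segments from the same libraries share the J use of those libraries, which raises every r.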

How the data were processed

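5′ RACE amplicons of Tcrb transcripts from 3 KO and 3 WT thymocyte libraries, made with a constant-region primer and 2 rounds of PCR, with no molecular identifiers named, were sequenced in paired reads, per the labels' protocols. fastp is named without a version in the submitters' processing notes; which aligner, segment caller and build were used is not given in the sources used here, nor is it stated whether reads or clonotypes were counted. The deposited values are in percent of a library per V-J pair. Counts were not reconstructed, and a count test foreseen for count files was replaced by limma.

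Shares of V segments and pairs (mean at least 0.1%) and J2 to J1 ratios (mean at least 0.5%) went into limma (version 3.58.1, R version 4.3.3) on the scale log2(percent + 0.00570), a pseudocount equal to the lowest nonzero value of the 6 libraries, with Benjamini-Hochberg adjustment over all features and calls at 0.05. Each test was run on simulated data with added differences, in which the features were drawn independently. The simulation thus did not cover the J use that V segments of a library share. The text names every V segment of the rule, and per V segment the J with the highest and the lowest preference among its tested pairs. Pairs under the filter were not ranked. Other pairs named, such as those with groups that did not overlap, were chosen after their values were seen. The members and lists were chosen with earlier results of these data known. Residuals of libraries with equal numbers correlated over 0.1 for all 3 numbers in V shares and pairs (pairs: 0.375, 0.250 and 0.324), and not in the ratios or preferences. The blocked count of calls stands beside that of the V shares, and the blocked value beside TRBV29, accordingly. Positions and sequences were taken by name from GENCODE M21, which held all 22 V segments. Identity was computed with Biopython 1.88. Python 3.11.15, numpy 2.4.6, pandas 2.3.3 and matplotlib 3.10.9 were used. Alternatives were other pseudocounts (0.5 and 10 times), no or a stricter filter, the replicate block, centred log-ratios, a variance trend, counting each pair once and leaving out each library.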

Additional observations from a re-analysis of the deposited data

How the results depend on the processing

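For the 5 V shares, the count of called V segments over the whole table was 1 with the stricter filter, 3 with the replicate block, 2 with centred log-ratios, 3 with a variance trend and 0 to 1 when a library was left out; none of TRBV23, TRBV24, TRBV26, TRBV29 or TRBV30 was called under any of these. The sign turned for TRBV30 when each pair was counted once (-0.0075), a count that reflects only which pairs stood at 0. Without 1 library the log2 difference ranged from -0.070 to 0.36 for TRBV23, from -0.019 to 0.35 for TRBV26 and from -0.15 to 0.39 for TRBV30 (-0.004 without KO library 3), from -0.91 to -0.01 for TRBV24 and from 0.18 to 0.31 for TRBV29. Pair shares gave 2 calls with 10 times the pseudocount, 2 with a variance trend and 0 to 2 without 1 library, none of them a pair of this group, and 0 with the replicate block. The J2 to J1 ratio gave 4 calls with no filter and 3 to 15 without 1 library: 3 without KO library 2, 15 without KO library 3, 4 without WT library 1 and 5 without WT library 3. Relative to the library, as a mean over genotypes, it gave 10 calls with no filter. Without 1 library it gave 5 to 8 calls (5 without WT library 2). It gave 0 with the exact sign-flip test, added after seeing the data, whose adjusted p could hardly pass with 6 libraries. As KO minus WT it gave 0 calls with no filter, with the replicate block and with a variance trend, and 0 to 1 without 1 library. That relative difference turned for TRBV26 to -0.03, -0.13 and -0.09 without KO library 1, KO library 3 and WT library 1, and for TRBV23 to 0.015 without WT library 3; it ranged from -0.13 to 0.23 for TRBV26, from -0.32 to 0.015 for TRBV23 and from 0.038 to 0.26 for TRBV29. Pair preference gave 4 calls with 0.5 times the pseudocount, 75 with 10 times, where the median of all pairs moved to 0.16 by construction and 12 of the calls were pairs of TRBV23, TRBV26 and TRBV29, 5 with the stricter filter, TRBV29 with TRBJ1-4 among them, and 0 to 2 without 1 library. With the replicate block it gave 10, among them TRBV29 with TRBJ2-3 (adjusted p = 0.0326); replicate numbers did not pair the libraries in this measure, nor in the ratios, where the block changed no call of TRBV23, TRBV26 or TRBV29 (TRBV23 ratio, adjusted p = 0.0168). Counted once per pair, the summed share differed by -0.329 and the J2 share of the group by -0.868 percentage points. With nearly every pair above 0, these counts cannot follow usage. By percentage and without 1 library, the summed share differed by 0.759 to 1.65 and the J2 share by -6.88 to -4.11. The cause of these changes was not tested. Shares near the resolution, those of TRBV24 and TRBV30, limit what their J profiles can show.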
